A study of Homo sapiens with 24 samples.

Results

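The replication-dependent histone genes of A2780 cells are described here across 3 times in hypoxia. They were taken as every gene symbol of the HIST1 to HIST4 naming scheme for histones H1, H2A, H2B, H3 and H4. Of 72 such symbols, the members are the 63 that reached 1 RPKM in 2 or more of the 12 libraries. They are 63 of the 11933 genes that passed the same filter, out of 22446 symbols in the table. RPKM stands for reads per kilobase of transcript per 1e6 reads of the library. The members hold 4 H1, 16 H2A, 18 H2B, 12 H3 and 13 H4 genes. By cluster, 46 belong to HIST1 on chromosome 6, 13 to HIST2, 3 to HIST3 and 1 to HIST4. The filter left out HIST1H1A, HIST1H1B, HIST1H2AA, HIST1H2BA, HIST1H2BB, HIST1H3A, HIST1H3G, HIST1H4F and HIST1H4L. Just inside it were HIST1H4D, with at least 1 RPKM in 2 libraries, and HIST1H1T, with 3 such libraries. Just outside was HIST1H2BB, with 1. HIST1H4D and HIST1H1T passed only through the libraries of hypoxia at 6 days, the group where they were highest; without these, 0 and 1 libraries reached the minimum. The filter thus favoured a higher value there, and their levels are given as a description with no test. Counts of calls and of members without overlap, over all members, a class or a cluster, still include them. All other members passed without the libraries of any 1 group.

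A2780 is an established human ovarian cancer cell line, grown here in RPMI medium with fetal bovine serum and gentamicin. The groups were hypoxia at 6 hr, normoxia at 6 hr, hypoxia at 48 hr, normoxia at 48 hr, hypoxia at 6 days and normoxia at 6 days, with 2 libraries each. The labels number the libraries 1 to 12 as replicates, and a library is named below by that number. Hypoxia was a chamber held at 1% oxygen, and no genotype or drug differed between groups. RNA was depleted of ribosomal RNA rather than selected for poly(A) tails, so transcripts without a tail could enter the libraries. Nothing in the labels ties the 2 libraries of a group to different cultures. The p-values below therefore rest on library-to-library spread that may be technical.

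Replication-dependent histone genes supply the proteins that package newly made DNA, and they are transcribed mainly in S phase. Histones H2A, H2B, H3 and H4 form the nucleosome core, and H1 binds the linker DNA between nucleosomes. Most of their mRNAs end in a stem-loop instead of a poly(A) tail; SLBP binds this loop for processing and translation, and NPAT, a target of cyclin E and CDK2, activates transcription of the clusters. Histone mRNA is degraded when DNA synthesis stops.

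The promoters of the clusters carry class-specific elements, and those of 7 members are shown because the genes stand for the 5 classes and for the unlike changes described below. All are the 200 bases before the RefSeq transcript start (build GRCh38.p14), written 5′ to 3′ on the strand of the gene. Capitals mark the TATA box TATAAA, the CCAAT box, the octamer ATTTGCAT of H2A and H2B genes, the H1 element AAACACA, and GGTCCG, the core of the H4 element. Each motif was searched on both strands and counted apart from the others, so that a base could belong to more than one; on the other strand CCAAT reads as ATTGG and the octamer as ATGCAAAT. HIST1H1C lies at chr6:26056471-26056670 (minus strand), HIST1H2AB at chr6:26033619-26033818 (minus), HIST1H2BJ at chr6:27132796-27132995 (minus) and HIST1H2BM at chr6:27814822-27815021 (plus). HIST1H3H lies at chr6:27809851-27810050 (plus), HIST1H4J at chr6:27823892-27824091 (plus) and HIST2H4A at chr1:149832457-149832656 (plus).
HIST1H1C: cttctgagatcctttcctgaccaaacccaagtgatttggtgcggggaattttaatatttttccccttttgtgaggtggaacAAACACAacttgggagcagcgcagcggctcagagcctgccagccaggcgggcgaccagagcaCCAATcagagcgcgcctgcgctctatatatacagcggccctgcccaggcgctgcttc
HIST1H2AB: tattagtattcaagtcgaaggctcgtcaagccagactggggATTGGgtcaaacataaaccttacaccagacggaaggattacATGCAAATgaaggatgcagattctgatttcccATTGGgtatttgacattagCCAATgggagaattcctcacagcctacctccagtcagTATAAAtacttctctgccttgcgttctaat
HIST1H2BJ: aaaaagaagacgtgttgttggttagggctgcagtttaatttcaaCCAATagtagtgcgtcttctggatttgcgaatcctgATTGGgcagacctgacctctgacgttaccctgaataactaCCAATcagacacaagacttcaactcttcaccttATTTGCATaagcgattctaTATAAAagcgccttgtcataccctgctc
HIST1H2BM: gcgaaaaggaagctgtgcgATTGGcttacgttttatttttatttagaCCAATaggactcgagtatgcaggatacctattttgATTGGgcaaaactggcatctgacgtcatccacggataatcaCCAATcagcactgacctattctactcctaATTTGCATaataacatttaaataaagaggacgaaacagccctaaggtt
HIST1H3H: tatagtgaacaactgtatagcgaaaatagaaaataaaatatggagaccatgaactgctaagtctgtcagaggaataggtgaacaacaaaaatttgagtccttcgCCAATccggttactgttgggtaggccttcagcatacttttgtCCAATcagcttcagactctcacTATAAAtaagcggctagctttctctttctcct
HIST1H4J: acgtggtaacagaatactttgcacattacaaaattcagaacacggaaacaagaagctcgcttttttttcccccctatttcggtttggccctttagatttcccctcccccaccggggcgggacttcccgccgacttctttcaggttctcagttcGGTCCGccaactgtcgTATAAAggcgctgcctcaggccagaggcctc
HIST2H4A: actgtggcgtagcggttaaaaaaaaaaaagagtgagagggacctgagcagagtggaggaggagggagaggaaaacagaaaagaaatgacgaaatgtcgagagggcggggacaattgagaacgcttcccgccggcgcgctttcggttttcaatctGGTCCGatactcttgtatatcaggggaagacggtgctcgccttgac

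RefSeq promoters, from 250 bases before to 50 after the start, were found for 56 of the 63 members. TATAAA, at any position and on either strand, was in 37 of them (66.1%), against 3264 of all 27305 RefSeq promoters. Many of these matches began near -30, as in HIST1H2AB at -30. Some members had only a match far from the start, such as HIST1H2AE at -206 and HIST1H2BM at -219, both on the other strand. CCAAT was in 46 of the 56 (82.1%), against 35.7% of all promoters, and it split the classes: all 4 H1, 15 H2A, 16 H2B and 10 H3 promoters held it, but 1 of 11 H4 promoters did. The octamer was in 23 of the 56 (41.1%, against 1.80% of all), namely 12 of 16 H2B, 10 of 15 H2A and 1 of 10 H3 promoters. That H3 promoter belongs to HIST1H3D, which shares its transcript start with HIST1H2AD. AAACACA was in all 4 H1 promoters, in 2 of 10 H3 and in 1 of 15 H2A promoters, 12.5% of the members with a promoter against 5.76% of all promoters. Its H3 and H2A matches lay after the start, at positions 32 to 36 on the other strand. GGTCCG was in 13 of the 56 (23.2%, against 11.2% of all), and 10 of these were H4 promoters, out of 11, where it began at positions -47 to -44 relative to the start. It was searched after a longer spelling of the H4 element had been tried. A match of letters is a description and not a measured site.

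Read totals, inferred from the steps between low values in the precursor miRNA table, ran from 25.2 to 51.8 reads a library in units of 1e6. On a transcript of 500 bases, 1 RPKM then stood for 12.6 to 25.9 reads. Of the 54 members with a RefSeq length of up to 1000 bases, 13 had a library under 100 reads, and the median member had 1374 reads. The hypoxia index genes were called higher in hypoxia for 6 of 8 at 6 hr and for 8 of 8 at 48 hr and at 6 days. Of all genes, 3.39% were called higher at 6 hr, 9.24% at 48 hr and 23.9% at 6 days. EPCAM, an epithelial surface protein, stood at 33.2 to 42.2 RPKM and the keratin KRT18 at 23.7 to 38.2 RPKM, while 7 of the 10 ovarian and epithelial markers, PAX8, WT1, MUC16 and CDH1 among them, failed the filter. One library of hypoxia at 6 hr (replicate 4) stood apart, with 20.2 RPKM of the globin gene HBB, against 0.0417 to 0.549 RPKM in the other libraries. Its 5 erythroid markers summed to 29.7 RPKM, against 0.208 to 2.64 RPKM elsewhere, and the 6 hr sum, median and counts of calls and of overlap are given with and without it. No endothelial or leukocyte marker passed the filter. Replicate 4 also had the highest sums of these markers. They were 0.354 RPKM for the endothelial list, against at most 0.151 RPKM elsewhere, and 2.09 RPKM for the leukocyte list, against at most 0.946 RPKM. The 11 fibroblast markers summed to 95.8 and 99.3 RPKM in hypoxia at 6 days, against 67.8 and 72.1 RPKM in normoxia. At 48 hr they summed to 232.7 and 233.1 RPKM in hypoxia, against 148.4 and 155.2 RPKM in normoxia. TAGLN and other genes of that list were also expressed in normoxia, and their part in the histone results was not tested.

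Many histone genes share long identical stretches, and the deposited values show that reads of such copies were divided or given to both. HIST2H2AA3 and HIST2H2AA4, HIST2H3A and HIST2H3C, and HIST2H4A and HIST2H4B had identical values in all 12 libraries, which leaves 60 distinct rows. Sums over a class or cluster are therefore given beside single genes, and single copies are to be read with caution. HIST1H3D and HIST1H2AD share a transcript start in RefSeq and may share reads as well. HIST2H2BA and HIST2H2BC are transcribed pseudogenes in RefSeq.

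At 6 days the summed level of the 63 histone genes was lower in hypoxia. The sum was 6086 and 5612 RPKM in hypoxia, against 11198 and 11447 RPKM in normoxia, a ratio of 0.517 between the group means (5849 ± 335 and 11322 ± 176 RPKM; SD, n = 2 each). The groups stood far apart next to the gap between their own libraries. At 48 hr the sum was 6966 and 7624 RPKM in hypoxia, against 7569 and 8626 RPKM in normoxia, and the groups overlapped (ratio 0.901). At 6 hr it was 6315 and 4950 RPKM in hypoxia, against 6772 and 5978 RPKM in normoxia, again overlapping (ratio 0.884). In the library set apart by globin RNA the sum was 4950 RPKM, the lowest of the 12, and without it the ratio at 6 hr was 0.991. With identical rows counted once, the ratio at 6 days was 0.522. In bulk RNA, fewer cells in S phase and less histone mRNA per cell cannot be told apart.

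**Figure D1:**
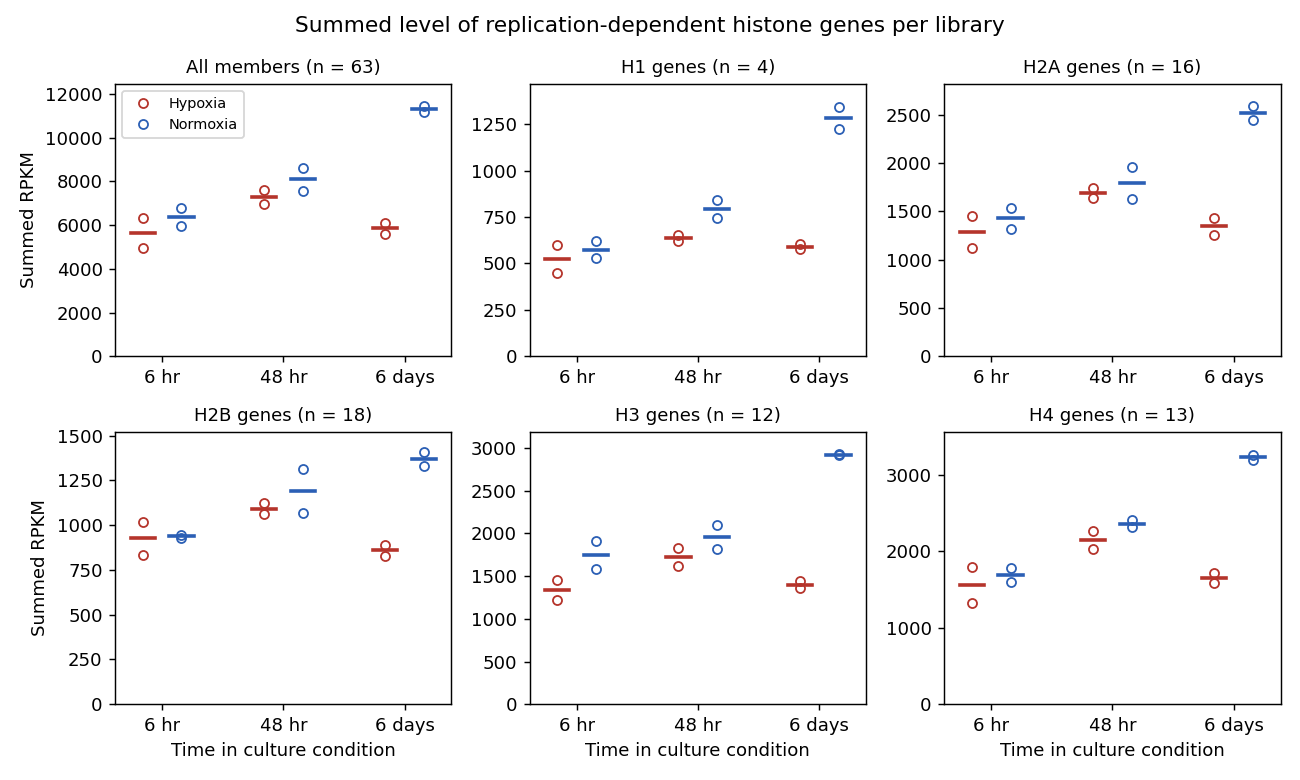
Summed RPKM (linear axis from 0) of all 63 members and of each histone class in the 12 libraries, by time, with hypoxia in red left of normoxia in blue. Circles are libraries and lines are group means of 2; at 6 days the sum over all members was 6086 and 5612 RPKM in hypoxia and 11198 and 11447 RPKM in normoxia.

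All 5 classes showed the lower sum at 6 days. The hypoxia to normoxia ratio was 0.460 for H1, 0.534 for H2A, 0.628 for H2B, 0.480 for H3 and 0.512 for H4, and in none of the 5 did the libraries of the groups overlap. H1 genes summed to 604 and 576 RPKM in hypoxia at 6 days, against 1225 and 1342 RPKM in normoxia. H2B genes, the class with the ratio nearest to 1, summed to 888.5 and 829.5 RPKM in hypoxia, against 1330 and 1407 RPKM in normoxia. By cluster the ratio was 0.511 for HIST1 and 0.508 for HIST2, so the main clusters, on different chromosomes, had nearly the same ratio. It was 0.737 for the 3 HIST3 genes and 0.904 for HIST4H4, the only HIST4 gene, whose libraries overlapped at 124 and 170 RPKM in hypoxia and 151 and 175 RPKM in normoxia.

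Gene by gene, limma on log2(RPKM + 0.5) with Benjamini-Hochberg adjustment over all 11933 genes called 45 of the 63 members lower in hypoxia at 6 days and 2 higher, at an adjusted p under 0.05. The 2 were HIST1H4D and HIST1H1T, which passed the filter only through the hypoxia libraries of that time. Over all genes tested, 18.3% were called lower and 23.9% higher. The median log2 fold change was -0.76 over the members and 0.04 over all genes. The libraries of the groups did not overlap for 53 members, 49 lower and 4 higher in hypoxia, against 34.1% and 41.3% of all genes. HIST1H4D and HIST1H1T are among the 4 higher, a direction their passage through the filter favoured. For hypoxia at a given time, fell and rose mean lower and higher than normoxia at that time. They do not describe a change with time within hypoxia. By class, 15 of 16 H2A, 10 of 13 H4, 3 of 4 H1, 11 of 18 H2B and 6 of 12 H3 genes fell. By cluster, 33 of 46 HIST1, 11 of 13 HIST2 and 1 of 3 HIST3 genes fell, and HIST4H4 did not pass the test. With identical rows counted once, 42 of 60 fell.

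**Figure D2:**
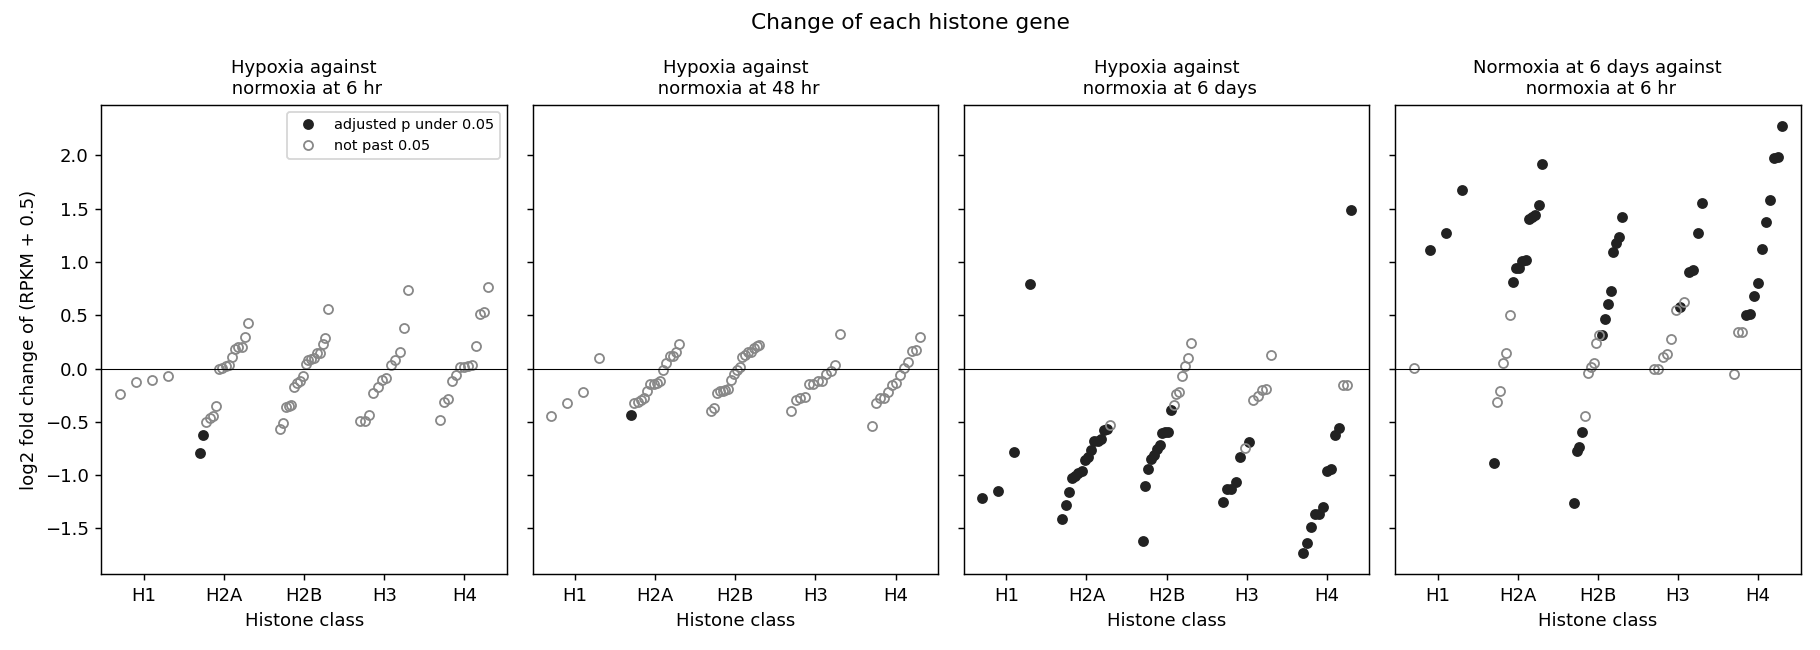
Log2 fold change of RPKM + 0.5 for each of the 63 histone genes, by class (x axis), in 4 comparisons. Points are genes in order of change, filled where the adjusted p is under 0.05 and open otherwise. Of the filled points, 45 lie below 0 and 2 above it for hypoxia against normoxia at 6 days; the 2 above are HIST1H4D and HIST1H1T, which passed the filter only through hypoxia at 6 days.

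The linker histone genes of highest level were both lower in hypoxia than in normoxia at 6 days. HIST1H1E had 254 and 219 RPKM in hypoxia at 6 days, against 497 and 551 RPKM in normoxia (log2 fold change -1.15 ± 0.17 SE, limma adjusted p = 0.000317). HIST1H1C had 244 and 260 RPKM in hypoxia, against 561 and 611 RPKM in normoxia (log2 fold change -1.22 ± 0.18 SE, limma adjusted p = 0.000361). Neither pair of groups overlapped. At 48 hr HIST1H1C stood at 185 and 194 RPKM in hypoxia and at 205 and 275 RPKM in normoxia, which did not pass the test (log2 fold change -0.32).

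Among H2A genes, HIST1H2AE had 152 and 134 RPKM in hypoxia at 6 days, against 367 and 396 RPKM in normoxia (log2 fold change -1.41 ± 0.21 SE, limma adjusted p = 0.000326). HIST1H2AG, the H2A gene of highest mean level, differed less, with 184 and 195 RPKM in hypoxia and 281 and 319 RPKM in normoxia (log2 fold change -0.66 ± 0.19 SE, limma adjusted p = 0.0166). The groups did not overlap for either gene, but the HIST1H2AG call was lost without replicate 10, 11 or 12, with limma adjusted p of 0.105, 0.0821 and 0.0524. HIST1H2AD had 95.0 and 108 RPKM in hypoxia, against 236 and 256 RPKM in normoxia (log2 fold change -1.28 ± 0.13 SE, limma adjusted p = 2.97e-05). HIST2H2AB was the H2A gene that did not pass the test, with a log2 fold change of -0.53 ± 0.21 SE.

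Among H2B genes, HIST1H2BJ had the lowest log2 fold change at 6 days (-1.62 ± 0.19 SE, limma adjusted p = 6.52e-05). It had 120 and 104 RPKM in hypoxia, against 331 and 356 RPKM in normoxia. HIST1H2BG, the H2B gene of highest mean level, had 178 and 158 RPKM in hypoxia, against 252 and 259 RPKM in normoxia (log2 fold change -0.61 ± 0.13 SE, limma adjusted p = 0.00341). The groups were apart for both genes. Of the 7 H2B genes that did not pass the test, HIST1H2BD, HIST1H2BN and HIST1H2BF had log2 fold changes of 0.03, 0.10 and 0.24.

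The H3 gene HIST1H3H had the highest mean level of all members, 568 RPKM. It had 544 and 558 RPKM in hypoxia at 6 days, against 1149.9 and 1147 RPKM in normoxia (log2 fold change -1.06 ± 0.21 SE, limma adjusted p = 0.00253). HIST2H3A, whose row is also that of HIST2H3C, had 178 and 154 RPKM in hypoxia, against 366 and 360 RPKM in normoxia (log2 fold change -1.13 ± 0.16 SE, limma adjusted p = 0.00031). Both genes were lower in hypoxia in every library. Among the 6 H3 genes that did not pass, HIST1H3C, HIST1H3F, HIST1H3I, HIST1H3J and HIST3H3 each had a library under 100 reads.

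The lowest changes of all members were in H4 genes. HIST1H4K had 13.0 and 9.70 RPKM in hypoxia at 6 days, against 39.6 and 37.3 RPKM in normoxia (log2 fold change -1.73 ± 0.21 SE, limma adjusted p = 0.000108). HIST1H4I had 6.52 and 3.76 RPKM in hypoxia, against 17.8 and 15.2 RPKM in normoxia (log2 fold change -1.63 ± 0.20 SE, limma adjusted p = 0.000111). The groups did not overlap for either, but both genes had a library under 100 reads, with 94 reads for HIST1H4K and 38 for HIST1H4I. HIST1H4J, the H4 gene of highest mean level, had 398 and 318 RPKM in hypoxia, against 998 and 990 RPKM in normoxia (log2 fold change -1.48 ± 0.23 SE, limma adjusted p = 0.000542). HIST2H4A, in one row with HIST2H4B, had 190 and 123 RPKM in hypoxia, against 458 and 341 RPKM in normoxia (log2 fold change -1.37 ± 0.25 SE, limma adjusted p = 0.00125). Neither pair of groups overlapped.

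HIST1H4D and HIST1H1T, the 2 members of lowest mean level, were highest in hypoxia at 6 days, and without this group neither passed the filter. HIST1H1T, the testis-specific linker histone, had 1.99 and 2.21 RPKM in hypoxia, against 0.879 and 1.14 RPKM in normoxia, and its highest library had 48 reads. HIST1H4D had 1.15 and 1.41 RPKM in hypoxia, against 0.183 and 0.0900 RPKM in normoxia, with at most 15 reads in a library. Whether reads were counted by strand is not given in the sources used here.

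**Figure D3:**
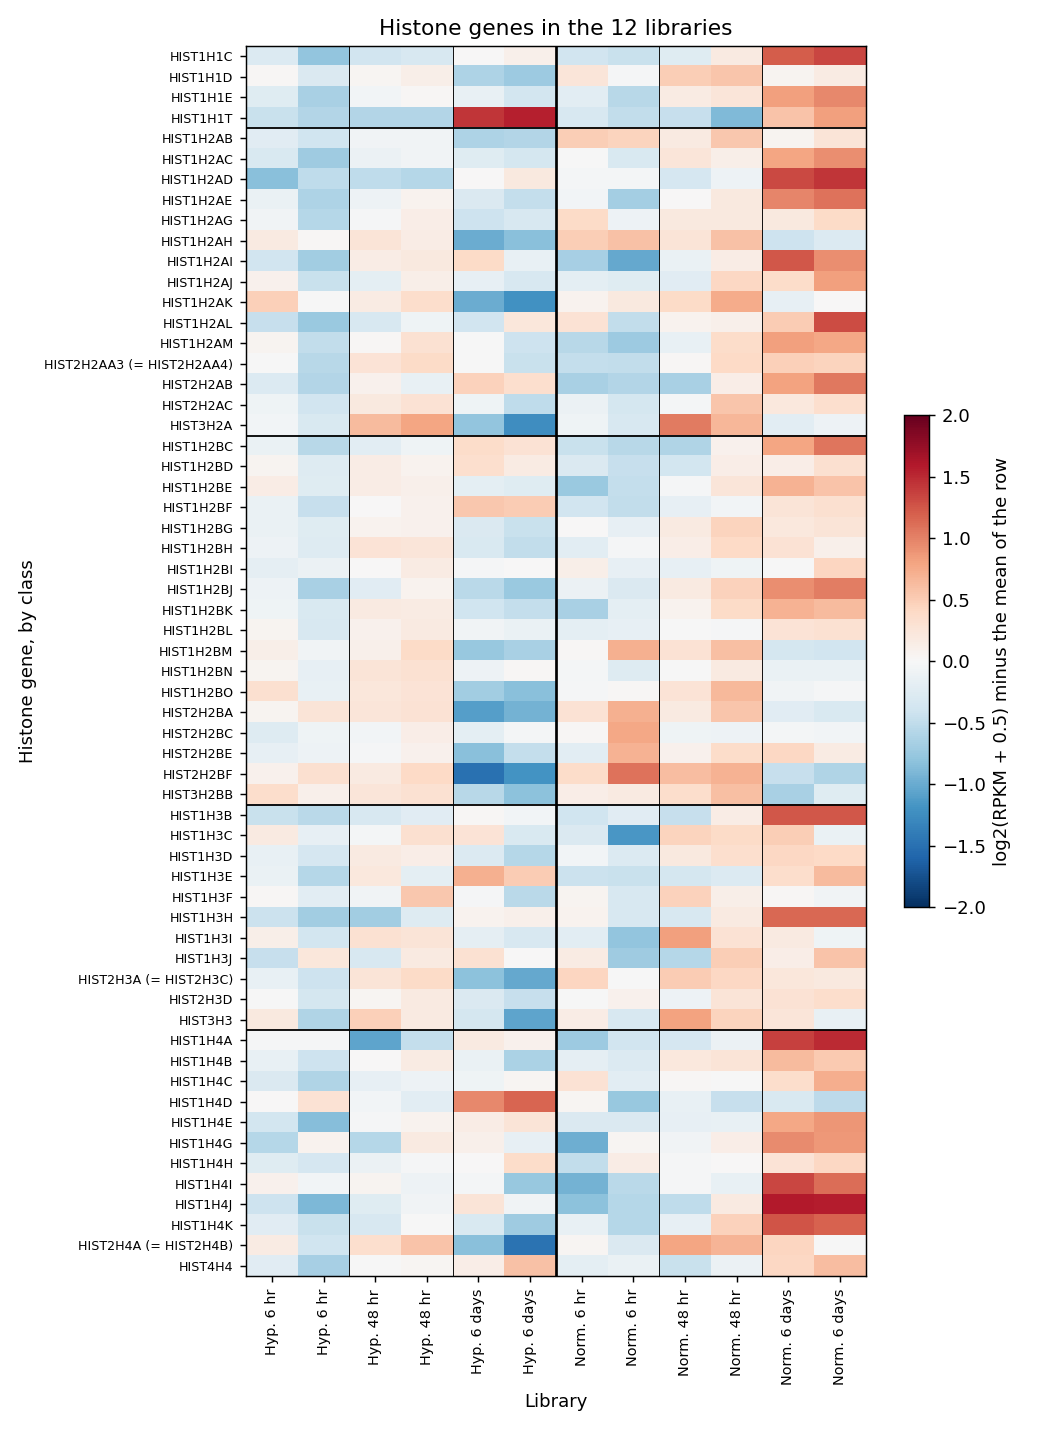
Level of each histone gene in each library as log2(RPKM + 0.5) minus the mean of its row, by class, with the hypoxia libraries left and the normoxia libraries right of the thick line. Red is above and blue below the row's mean; HIST1H4J is reddest in normoxia at 6 days, with 998 and 990 RPKM, and HIST1H1T and HIST1H4D are reddest in hypoxia at 6 days.

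At 6 hr and 48 hr few histone genes changed. At 6 hr limma called 2 members lower and 0 higher in hypoxia, where 0.201% of all genes were called lower and 3.39% higher. At 48 hr it called 1 lower and 0 higher, where 2.89% of all genes were called lower and 9.24% higher. At an unadjusted p under 0.05 the members numbered 16 at 6 hr, where 16.8% of all genes passed it, and 4 at 48 hr, where 26.8% did. The median log2 fold change was -0.01 over the members and 0.04 over all genes at 6 hr, and -0.14 over the members and 0.01 over all genes at 48 hr. The libraries did not overlap for 15 members lower and 6 higher at 6 hr (12.9% and 24.1% of all genes), and for 24 lower and 8 higher at 48 hr (29.6% and 33.3% of all genes). Without the library that held globin RNA, 3 members were called at 6 hr: HIST1H2AB and HIST1H2AD lower (0.101% of all genes) and HIST1H2BE higher (2.83% of all genes). The median at 6 hr was then 0.13 over the members and 0.07 over all genes. The 1 hypoxia library left lay above both normoxia libraries for 30 members and below both for 16, against 44.2% and 19.9% of all genes. The count of 2 at 6 hr also changed without replicate 1, 2 or 3, and the share of all genes called in those fits is not given.

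The 1 gene called at all 3 times was HIST1H2AB, an H2A gene with a TATA box, CCAAT boxes and the octamer in its promoter. It had 57.1 and 50.5 RPKM in hypoxia at 6 hr, against 95.0 and 91.4 RPKM in normoxia (log2 fold change -0.79 ± 0.13 SE, limma adjusted p = 0.00458). Without replicate 4 the 6 hr log2 fold change was -0.70 (limma adjusted p = 0.0419). At 48 hr it had 64.1 and 63.8 RPKM in hypoxia, against 76.0 and 98.0 RPKM in normoxia (log2 fold change -0.43 ± 0.13 SE, limma adjusted p = 0.0482). Its groups were apart at both times, but the call at 48 hr was lost without replicate 6, 7 or 8 (log2 fold change -0.25, -0.43 and -0.43). That 48 hr call was also lost with no filter (limma adjusted p = 0.0867) and with the libraries of the groups compared alone (limma adjusted p = 0.0591). At 6 days it had 43.6 and 44.4 RPKM in hypoxia, against 69.8 and 80.1 RPKM in normoxia (log2 fold change -0.76 ± 0.13 SE, limma adjusted p = 0.000767). The other gene called at 6 hr was HIST1H2AD, with 52.5 and 66.4 RPKM in hypoxia and 91.6 and 91.4 RPKM in normoxia (log2 fold change -0.63 ± 0.13 SE, limma adjusted p = 0.0225). That call was lost without replicate 2 or 3 (log2 fold change -0.63 and -0.46). The HIST1H2AD call at 6 hr was also lost with no filter (limma adjusted p = 0.0581) and with the libraries of the groups compared alone (limma adjusted p = 0.127). Without replicate 4 its log2 fold change was -0.79.

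The change with time in hypoxia was tested as a difference between times in the same limma model. The effect of hypoxia at 6 days minus that at 48 hr passed for 19 members in the lower direction, against 5.31% of all genes. The 1 call in the higher direction (5.38% of all genes) was HIST1H4D, a direction its passage through the filter favoured. The median difference was -0.69 on the log2 scale over the members and 0.03 over all genes. This count rests on few libraries and was lower with any 1 of the 8 left out. For it and the other counts with a library left out, calls over all genes in the same fits are not given. Against 6 hr in place of 48 hr, the effect at 6 days passed as lower for 25 members, against 10.2% of all genes. The 1 higher call there (11.2% of all genes) was HIST1H1T, with the same limit of the filter. These 26 calls were 16 without replicate 3 or 9 and 15 without replicate 12. Between 48 hr and 6 hr the difference passed for 0 members, against 0.511% of all genes higher and 0.0168% lower; 7 members had an unadjusted p under 0.05, against 10.8% of all genes. With time and oxygen as additive terms, 17 members were lower in hypoxia over all times and 1, again HIST1H4D, was called higher, against 7.13% and 15.3% of all genes. HIST1H2AD had the lowest such estimate, a log2 fold change of -0.74 ± 0.14 SE, followed by HIST1H2BJ at -0.73 ± 0.21 SE. The count of 18 in either direction was 9 without replicate 10 or 11, 10 without replicate 9 or 12, and 28 without replicate 3.

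Histone genes also changed with time. This comparison shares the normoxia libraries of 6 days with the hypoxia comparison at 6 days, so their values are only set side by side. In normoxia the summed level was 11198 and 11447 RPKM at 6 days, against 6772 and 5978 RPKM at 6 hr (ratio 1.78). In hypoxia it was 6086 and 5612 RPKM at 6 days, against 6315 and 4950 RPKM at 6 hr (ratio 1.04), and the libraries of those 2 times overlapped. Limma called 36 members higher, HIST1H1T among them, and 5 lower in normoxia at 6 days than at 6 hr. Over all genes 30.9% were called higher and 25.9% lower. The median log2 fold change was 0.61 over the members and 0.04 over all genes. At 48 hr in normoxia 0 members were called against 6 hr (0.00838% of all genes higher and 0.0838% lower). At an unadjusted p under 0.05 there were 29 (16.4% of all genes). Some members were called without replicate 1 of normoxia at 6 hr, in a fit whose share of all genes is not given. In hypoxia at 6 days against hypoxia at 6 hr, a comparison added after the data had been seen, 15 members, HIST1H4D and HIST1H1T among them, were higher and 13 lower (35.1% and 29.8% of all genes), with a median log2 fold change of -0.03. With quantile normalization 10 were higher and 14 lower, and the share of all genes in that fit is not given.

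The change with time is set side by side by class and cluster, without a test of the difference between them. In normoxia at 6 days against 6 hr, 30.9% of all genes rose and 25.9% fell. By class, 3 of 4 H1, 10 of 16 H2A, 8 of 18 H2B, 5 of 12 H3 and 10 of 13 H4 genes rose. HIST1H1T, which passed the filter only through hypoxia at 6 days, is among the H1 genes that rose. In the other direction, 1 H2A and 4 H2B genes fell. HIST1H4J had the largest rise, to 998 and 990 RPKM in normoxia at 6 days, against 187 and 225 RPKM in normoxia at 6 hr (log2 fold change 2.27 ± 0.23 SE, limma adjusted p = 1.44e-05). The summed level of HIST1 genes in normoxia at 6 days was 2.04 times that at 6 hr, against 1.25 times for HIST2 and 0.760 times for HIST3. In hypoxia the same ratios of 6 days to 6 hr were 1.19 for HIST1, 0.711 for HIST2 and 0.535 for HIST3. The HIST2 sums hold both rows of each identical pair. The 5 members that fell in normoxia were HIST2H2BF (log2 fold change -1.26 ± 0.20 SE), HIST1H2AH (-0.89 ± 0.13), HIST2H2BA (-0.77 ± 0.15), HIST1H2BM (-0.74 ± 0.20) and HIST3H2BB (-0.60 ± 0.15).

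The make-up of each class shifted as well. Per length, HIST1H4J made up 21.6% of the summed H4 level in hypoxia at 6 days and 30.8% in normoxia at 6 days, against 13.7% in hypoxia and 12.3% in normoxia at 6 hr. HIST2H4A stood at 9.4% in hypoxia at 6 days and 12.4% in normoxia, against 20.5% in hypoxia and 18.5% in normoxia at 6 hr. HIST1H3H made up 39.4% of the H3 sum in hypoxia at 6 days and 39.3% in normoxia, against 26.3% in hypoxia and 27.5% in normoxia at 6 hr. In the H2B class, HIST1H2BJ made up 13.0% of the sum in hypoxia at 6 days and 25.1% in normoxia. Each share is the mean over the libraries of a group of the percent in each library, without a test. The H3 and H4 sums hold both rows of their identical pairs.

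H2A and H2B genes often stand head to head and share a promoter region. Among the members, 10 such pairs had starts 194 to 248 bases apart in RefSeq. At 6 days all 10 H2A genes and 6 of their 10 H2B partners were called lower in hypoxia, where 18.3% of all genes were, and the H2A estimate was below the H2B estimate in 8 of the 10 pairs. HIST1H2AD and HIST1H2BF, 223 bases apart, had log2 fold changes of -1.28 and 0.24, of which the first passed the test. In 2 pairs the order was the other way: HIST1H2BJ and HIST1H2AG, 248 bases apart, had -1.62 and -0.66, and HIST2H2BE and HIST2H2AC, 236 bases apart, had -0.94 and -0.57. In normoxia at 6 days against 6 hr, 6 of the 10 H2A and 4 of the 10 H2B genes rose, where 30.9% of all genes rose. In the other direction 2 of the H2B genes fell, where 25.9% of all genes fell. Both genes rose in 3 pairs, a count for which the share of single genes is no measure. HIST1H2AJ and HIST1H2BM, 245 bases apart, changed in opposite directions there, by 0.81 (limma adjusted p = 0.0103) and -0.74 (limma adjusted p = 0.00758). Differences within a pair were not tested.

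Some cluster genes are also made as polyadenylated RNA in differentiated or resting cells, and 6 members were listed as such: HIST1H1C, HIST1H2AC, HIST1H2BC, HIST1H2BD, HIST1H2BK and HIST2H2BE. At 6 days 5 of these 6 fell in hypoxia, as did 40 of the other 57 members and 18.3% of all genes. HIST1H2BD did not, with a log2 fold change of 0.03 ± 0.17 SE. In normoxia 5 of the 6 rose at 6 days against 6 hr, as did 31 of the other 57 and 30.9% of all genes.

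Of 12 tested genes listed for histones and variants outside the HIST1 to HIST4 naming scheme, 2 rose and 2 fell in hypoxia at 6 days, against 23.9% and 18.3% of all genes. Neither share stood above that of all genes. At 48 hr 1 rose, against 9.24% of all genes. H1F0, the linker histone H1.0 of slowly dividing cells, had 157 and 145 RPKM in hypoxia at 6 days, against 119 and 124 RPKM in normoxia (log2 fold change 0.32 ± 0.11 SE, limma adjusted p = 0.032). At 48 hr it had 26.7 and 26.2 RPKM in hypoxia, against 17.6 and 17.6 RPKM in normoxia (log2 fold change 0.57 ± 0.11 SE, limma adjusted p = 0.00453). In normoxia its log2 fold change at 6 days against 6 hr was 2.93 ± 0.11 SE. H3F3A, which encodes the replacement histone H3.3, had 8.61 and 8.09 RPKM in hypoxia at 6 days, against 12.7 and 12.1 RPKM in normoxia (log2 fold change -0.54 ± 0.14 SE, limma adjusted p = 0.00994). H3F3B, which encodes the same protein, had 63.7 and 53.6 RPKM in hypoxia and 60.2 and 51.5 RPKM in normoxia, and overlapped. H3F3C rose by 0.26 and H1FX fell by 0.31 on the log2 scale. The variant genes H2AFZ and H2AFX did not pass at 6 days, with log2 fold changes of -0.17 and -0.28; in normoxia both were lower at 6 days than at 6 hr, by -0.53 and -0.65.

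**Figure D4:**
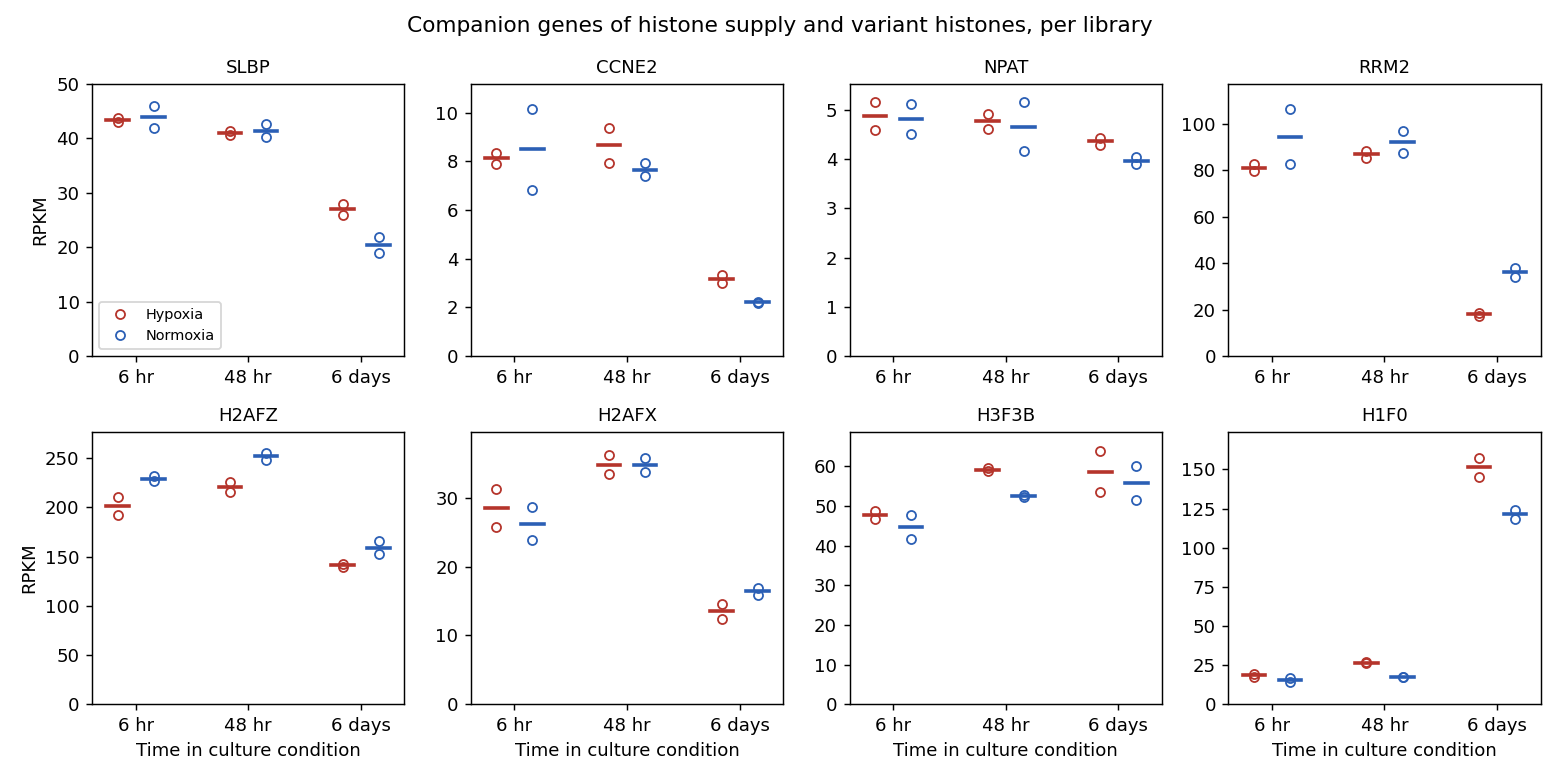
RPKM (linear axes from 0) of 8 genes of histone supply, S phase and variant histones in the 12 libraries, by time, with hypoxia in red left of normoxia in blue. Circles are libraries and lines are group means of 2; SLBP at 6 days had 25.9 and 28.0 RPKM in hypoxia and 21.9 and 19.0 RPKM in normoxia.

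Among factors that make and process histone mRNA, SLBP, the stem-loop binding protein, had 25.9 and 28.0 RPKM in hypoxia at 6 days, against 21.9 and 19.0 RPKM in normoxia (log2 fold change 0.39 ± 0.10 SE, limma adjusted p = 0.00738). In normoxia it was lower at 6 days than at 6 hr (log2 fold change -1.09 ± 0.10 SE, limma adjusted p = 5.17e-06). NPAT had 4.28 and 4.43 RPKM in hypoxia at 6 days, against 3.90 and 4.04 RPKM in normoxia, and passed in no hypoxia comparison at a single time. Of 11 tested transcription activators of histone genes, 2 rose and 4 fell at 6 days, against 23.9% and 18.3% of all genes. HINFP, which binds H4 promoters, had 5.83 and 5.99 RPKM in hypoxia, against 3.58 and 4.16 RPKM in normoxia (log2 fold change 0.55 ± 0.09 SE, limma adjusted p = 0.000841). CCNE2, a cyclin E gene, rose by 0.44, while its partner kinase CDK2 fell by 0.49 and the transcription factor E2F1 by 0.38.

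Of 22 genes of histone 3′ end processing, 1 rose, SLBP itself, and 6 fell in hypoxia at 6 days, against 23.9% and 18.3% of all genes. MIF4GD, the SLBP partner SLIP1 in translation of histone mRNA, had 10.1 and 9.25 RPKM in hypoxia, against 16.9 and 17.2 RPKM in normoxia (log2 fold change -0.79 ± 0.12 SE, limma adjusted p = 0.000535). LSM10, a subunit of the U7 particle that directs the cleavage, fell by 0.62, and CPSF3, the endonuclease that makes the cut, by 0.58. CPSF1 fell by 0.48. RNU7-1, the U7 RNA, has no value here. Of 20 histone mRNA decay genes, 3 rose and 5 fell, which is near those shares of all genes. LSM3 rose by 0.61, while LSM2, ATR and LSM1 fell by 0.71, 0.59 and 0.56.

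Of 23 genes of histone chaperones and import, 1 rose and 8 fell in hypoxia at 6 days, against 23.9% and 18.3% of all genes. At 48 hr 2, ASF1A and CHAF1B, fell, against 2.89% of all genes. CHAF1B, a subunit of the chromatin assembly factor that places new H3 and H4 on replicated DNA, had 2.64 and 2.69 RPKM in hypoxia at 6 days, against 4.04 and 4.92 RPKM in normoxia (log2 fold change -0.65 ± 0.11 SE, limma adjusted p = 0.000955). MMS22L and TONSL, which form one complex at replication forks, fell by 0.67 and 0.63, and CABIN1 rose by 0.78. None of these lists had a member past the threshold at 6 hr.

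Of 25 S-phase genes, 18 fell and 1 rose in hypoxia at 6 days, against 18.3% and 23.9% of all genes, with a median log2 fold change of -0.55. RRM2, a subunit of ribonucleotide reductase, had 17.5 and 18.6 RPKM in hypoxia at 6 days, against 37.9 and 34.2 RPKM in normoxia (log2 fold change -0.98 ± 0.12 SE, limma adjusted p = 0.000108). MCM7 of the replicative helicase had 24.0 and 21.9 RPKM in hypoxia, against 43.3 and 44.9 RPKM in normoxia (log2 fold change -0.93 ± 0.13 SE, limma adjusted p = 0.000205). The libraries of the groups did not overlap for either gene. CDC45 fell by 0.92 and POLE2 by 0.87. With time in normoxia, 22 of the 25 S-phase genes were lower at 6 days than at 6 hr and 0 higher, against 25.9% and 30.9% of all genes (median log2 fold change -0.63), while 36 of the 63 histone genes were higher and 5 lower. RRM2 fell by 1.37 and MCM7 by 0.53 in that comparison.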

How the data were processed

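RNA of 12 libraries (2 in each of 6 groups) was analysed from RPKM values that the authors deposited per gene symbol, 1 column a library. The submitters' processing notes name Partek 6.6 and build hg19; which aligner and transcript models were used, and how reads shared by copies were handled, is not given in the sources used here. The test was limma (version 3.58.1, under R 4.3.3), fitted to log2(RPKM + 0.5) without further normalization: 6 group means, an empirical Bayes spread with an intensity trend, two-sided, Benjamini-Hochberg adjustment over the 11933 genes with at least 1 RPKM in at least 2 libraries, threshold 0.05. The fit had 6 residual and 5.08 prior degrees of freedom. The deposited RPKM of precursor miRNAs served only to infer read totals: 94.4 to 98.7% of its values up to 20 reads lay within 0.05 of whole reads.

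The members and lists were chosen with earlier results of these data known. Members given with all values are the 2 of highest mean RPKM per class and, at each time, up to 4 highest and 4 lowest changes past the threshold; companion lists give up to 4 genes by size of change, plus SLBP, NPAT, H2AFX, H2AFZ, H3F3B and H1F0. Symbols were matched to RefSeq names of GRCh38.p14, 72 of 72, and promoters come from RefSeq. The procedure was tested on simulated data. Alternatives were the pseudocount, the filter, 2 normalizations, the trend, the libraries fitted, each library left out, and, chosen after seeing the data, identical rows counted once.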

Additional observations from a re-analysis of the deposited data

Results flagged for a closer look

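The hypoxia effect differed between times by the test of the difference itself (limma, Benjamini-Hochberg adjustment) for 20 histone genes at 6 days against 48 hr, 19 of them lower (5.31% of all genes) and 1 higher (5.38%). That count was lower with any 1 of the libraries compared left out. At 6 days against 6 hr the hypoxia effect differed for 26, of which 25 were lower (10.2% of all genes) and 1 higher (11.2%). This second count was lower without replicate 3, 9 or 12, and calls over all genes in the same fits are not given. The single higher calls, HIST1H4D and HIST1H1T, passed the filter only through hypoxia at 6 days. Among the genes given with all values, the log2 effect at 6 days minus that at 48 hr was -0.93 for HIST1H1E, -0.89 for HIST1H1C, -1.3 for HIST1H2AE, -1.22 for HIST1H2BJ and -0.98 for HIST2H3A. It was -1.49 for HIST1H4J, -0.96 for HIST1H2AD, -1.41 for HIST1H4K and -1.69 for HIST1H4I.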

How the results depend on the processing

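No paired analysis was possible because the labels number the libraries 1 to 12 and no number is shared between groups. For hypoxia against normoxia at 6 days the count of histone genes called in either direction, 47, was 42 to 51 under the other settings and 36 to 41 with 1 library left out; for normoxia at 6 days against 6 hr, 41, it was 35 to 42 with 1 left out. Other counts moved more, and the cause was not tested. No count in this paragraph is set beside the share of all genes called in the same fit. The counts include HIST1H1T and HIST1H4D where these were called. At 6 hr the count, 2, was 1 with no filter, 5 with quantile normalization, 3 with trimmed-mean centring and 1 to 8 with 1 library left out. At 48 hr the count, 1, was 0 with no filter, 3 with quantile normalization, 2 with trimmed-mean centring, with no intensity trend or with the libraries of the groups compared alone, and 0 to 1 with 1 library left out. For normoxia at 48 hr against 6 hr it was 1 with a filter of 5 RPKM and 0 to 10 with 1 library left out, against 0. The effect at 6 days minus 48 hr gave 20 calls, 13 with no filter, 33 with quantile normalization, 31 with the groups compared alone and 2 to 17 with 1 library left out. The effect at 6 days minus 6 hr gave 26, and 15 to 29 with 1 left out; that at 48 hr minus 6 hr gave 0, and 0 to 1. Hypoxia across times gave 18, 9 with no filter and 9 to 28 with 1 left out; it uses all libraries, so no fit on the groups compared alone exists. The summed log2 ratio of all members at 6 days was -0.95, and -1.15 with quantile normalization. Class sums changed sign with 1 library left out. At 6 hr their log2 ratios ranged over -0.346 to 0.0636 (H1), -0.354 to 0.0239 (H2A), -0.166 to 0.117 (H2B) and -0.358 to 0.0824 (H4), above 0 without replicate 4, and at 48 hr over -0.211 to 0.0591 (H2A) and -0.266 to 0.0357 (H2B), above 0 without replicate 6. Of the values of named genes under the alternatives, other than HIST1H1T and HIST1H4D, 652 kept their side of the threshold, 12 lost it and 8 passed it.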
